A study of Sus scrofa with 6 samples.

Results

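Fibronectin and the proteins of elastic fibres and microfibrils were examined through 10 genes: FN1, ELN, FBN1, FBLN1, FBLN2, FBLN5, EFEMP1, EFEMP2, MFAP4 and MFAP5. They were taken by gene symbol from the deposited expression table, which lists 13288 genes, and all 10 were found in it. The RNA came from ventricular tissue of male Tibetan minipigs, 3 in the sham group and 3 in the descending aortic constriction (DAC) group. In the DAC group the descending aorta had been narrowed with sutures to load the left ventricle, and in the sham group the chest was opened without constriction. Tissue was taken 12 weeks after surgery, each library came from 1 minipig, and neither the age of the animals nor the sampled part of the ventricle is given in the sources used here. The minipigs are named by the numbers in their labels, sham replicates 1 to 3 and DAC replicates 4 to 6.

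Fibronectin (FN1) is a large glycoprotein that cells pull into fibrils through integrins, and it forms an early matrix on which collagens and other proteins are laid down. Elastic fibres have a core of cross-linked elastin (ELN) on a scaffold of microfibrils, which are built from fibrillin-1 (FBN1) and decorated by microfibril-associated proteins. The fibulins join these layers: FBLN1 and FBLN2 bind fibronectin and basement membrane proteins, and FBLN5, EFEMP2 (fibulin-4) and EFEMP1 (fibulin-3) are short fibulins. FBLN5 and EFEMP2 guide elastin and its cross-linking enzymes onto microfibrils. In the heart these proteins lie in the interstitium, the valves and the walls of vessels, and fibroblasts and vascular cells make most of them.

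Levels are given in FPKM, the fragments mapped to a gene scaled by its transcript length and by the total of mapped fragments, so that levels may be compared between genes. The sum of FPKM over all genes was between 281377 and 308771 per minipig, and mitochondrially encoded genes held 24.0% to 25.3% of it in the sham group, 32.8% in DAC replicate 5 and 27.1% to 27.2% in the other DAC minipigs. How many reads each value rests on is unknown. Cardiomyocyte markers were abundant in every minipig, with a summed level over 8 markers of 13675 to 14575 FPKM in the sham group and 13068 to 15878 FPKM in the DAC group, and none of the 8 was at 0. The other 4 of the 12 markers on this list (MB, MYH6, PLN and TTN) were not found in the table by symbol. Of the 8 markers, RYR2 was a downregulated DEG. The groups were compared with limma on log2(FPKM + 1), over the 11029 genes that reached 1 FPKM in 3 or more of the 6 minipigs. All 10 genes passed this filter. Genes with P under 0.05 before adjustment, the threshold of the study's methods, are called differentially expressed (DEGs), and log2 fold changes are DAC minus sham on the log2(FPKM + 1) scale. Only the threshold is the study's, so a gene that is or is not a DEG here need not have the same status in the study.

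In the sham group, FBLN5 had the highest level of the 10 genes, with a mean of 62.3 FPKM, followed by FBN1 with 37.5 and FBLN1 with 28.0. FBN1 and FBLN1 were further apart than the SD of either, and so were FBLN5 and FBN1. FBLN2, MFAP4, MFAP5 and FN1 lay close together at 24.3, 23.4, 22.7 and 21.5 FPKM, closer than the SD of any of them. EFEMP2 was lower at 10.4 FPKM, ELN was at 5.03 FPKM and EFEMP1, the lowest, at 3.04 FPKM. Over all 6 minipigs the mean level of FBLN5 lay at the 94.8th percentile of the genes tested, that of FBN1 at the 92.4th, that of FN1 at the 89.8th, that of ELN at the 45.4th and that of EFEMP1 at the 36.0th. In the DAC group the means of FBLN5, FBN1 and FN1 were 56.4, 45.4 and 43.1 FPKM, closer together than the SD of FBLN5 or FBN1, and their order was not the same in each minipig. FN1 was above FBN1 in DAC replicates 4 and 5 and below it in DAC replicate 6.

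FN1 and EFEMP1 were upregulated in the DAC group, and none of the 10 genes was a downregulated DEG. The 2 upregulated genes compare with 3.25% of all genes tested that were upregulated DEGs, and the 0 downregulated genes with 5.27% that were downregulated DEGs. For FN1 and EFEMP1 all DAC minipigs lay above all sham minipigs, an arrangement found in 6.01% of the genes tested. In none of the 10 genes did all DAC minipigs lie below all sham minipigs, which was the case in 8.91% of the genes tested. After Benjamini-Hochberg adjustment over all genes tested, 0% of them passed 0.05 with limma, while 939 genes had an unadjusted P under 0.05, and the smallest adjusted P was 0.106. Of the 10 genes, 8 had a higher mean log2 level in the DAC group, against 46.65% of all genes tested. Among the 8, EFEMP2, FBLN2 and ELN had small log2 fold changes of 0.019, 0.061 and 0.083. The median log2 fold change of the 10 genes was 0.12 against -0.016 over all genes tested. Leaving out DAC replicate 6 brought this median to -0.040, and leaving out DAC replicate 5 brought it to 0.31.

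**Figure D1:**
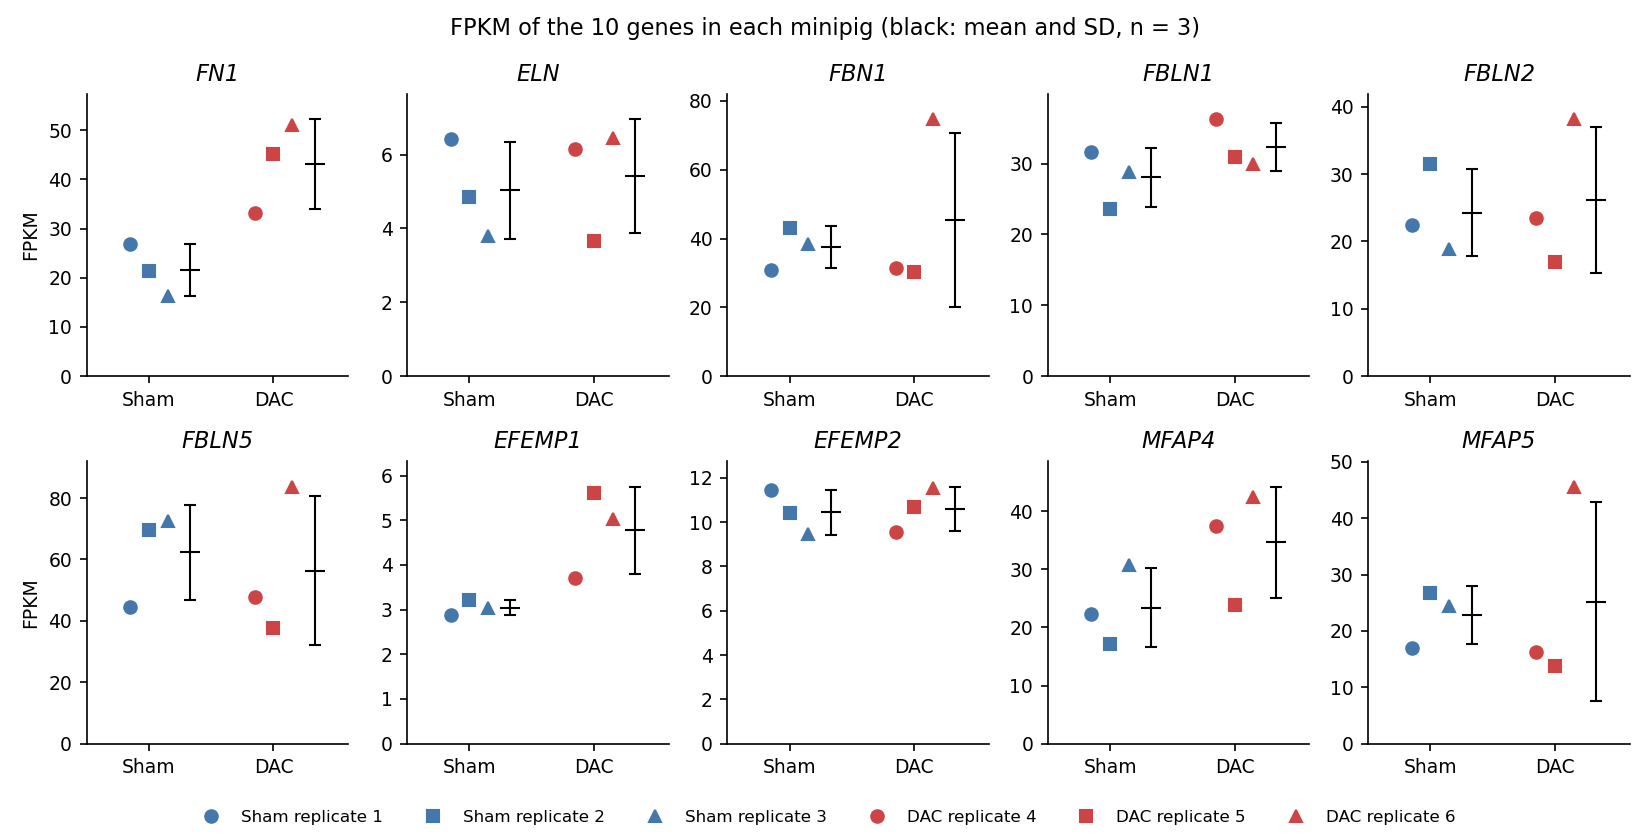
FPKM of each of the 10 genes in the sham minipigs (blue) and the DAC minipigs (red), with the marker shape showing the replicate and black bars showing the mean and SD of each group (n = 3). The groups are apart in FN1 and EFEMP1 alone, and DAC replicate 6 (red triangle) stands above the other DAC minipigs in FBN1, FBLN2, FBLN5 and MFAP5.

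FN1 (ENSSSCG00000016174) lies on the minus strand of chromosome 15, from 117658099 to 117731014 on susScr11, the genome build in the submitters' processing notes. In the sham group it was at 26.8, 21.5 and 16.2 FPKM in replicates 1, 2 and 3. In the DAC group it was at 33.1, 45.2 and 51.0 FPKM in replicates 4, 5 and 6. Every DAC minipig was above every sham minipig, and the gap between the lowest DAC and the highest sham value was small beside the range within each group. The mean rose from 21.5 ± 5.29 to 43.1 ± 9.13 FPKM (SD, n = 3 each), a ratio of 2.0. The log2 fold change was 0.98 (standard error 0.22, 95% confidence interval 0.46 to 1.5), with an adjusted P of 0.441 from limma. The two-sided exact permutation test of the FPKM gave P = 0.10, the smallest value that 3 minipigs against 3 allow. FN1 was a DEG in all 14 alternative settings, and with 1 minipig left out its log2 fold change was between 0.80, without sham replicate 3, and 1.15, without DAC replicate 4. FN1 made up 12.4%, 8.53% and 6.59% of the summed FPKM of the 10 genes in the sham minipigs, and 13.5%, 20.7% and 13.1% in the DAC minipigs. This share was also higher in every DAC minipig, by a narrow margin over sham replicate 1.

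EFEMP1 (ENSSSCG00000008397, plus strand of chromosome 3, from 85268311 to 85473254) encodes a short fibulin that is better known from the matrix of fascia and the eye than from elastin assembly. It was at 2.88, 3.21 and 3.04 FPKM in the sham minipigs and at 3.70, 5.61 and 5.02 FPKM in the DAC minipigs. The sham minipigs were nearly equal, and the DAC minipigs were all higher and more spread. The mean rose from 3.04 ± 0.163 to 4.78 ± 0.974 FPKM (SD, n = 3 each), a ratio of 1.57. Its log2 fold change was 0.50 (standard error 0.15, 95% confidence interval 0.16 to 0.84), with an adjusted P of 0.505 from limma. EFEMP1 was a DEG in each of the 13 alternative settings that tested it, and with 1 minipig left out its log2 fold change was between 0.40 and 0.64. A minimum of 5 FPKM removes it, since only DAC replicates 5 and 6 reach that level.

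The other short fibulins, EFEMP2 and FBLN5, did not pass the test, and their difference from EFEMP1 was not tested. EFEMP2 (ENSSSCG00000012971, plus strand of chromosome 2, from 6450332 to 6463493), which brings lysyl oxidase to elastin, was at 11.4, 10.4 and 9.45 FPKM in the sham minipigs. It was at 9.55, 10.7 and 11.6 FPKM in the DAC minipigs, so that the groups covered almost the same range. The log2 fold change of EFEMP2 was 0.019, and its 95% confidence interval of -0.26 to 0.30 was the narrowest of the 10 genes. FBLN5 (ENSSSCG00000002444, minus strand of chromosome 7, from 113423629 to 113522069), which links elastin to integrins, was at 44.5, 69.8 and 72.5 FPKM in the sham minipigs. In the DAC minipigs it was at 47.7, 37.7 and 83.7 FPKM. DAC replicate 6 was the highest of all, DAC replicate 5 the lowest, and sham replicate 1 lay with DAC replicates 4 and 5. The log2 fold change of FBLN5 was -0.19 (standard error 0.31, 95% confidence interval -0.93 to 0.55), with an adjusted P of 0.883 from limma. Leaving out DAC replicate 6 gave -0.51, and leaving out DAC replicate 5 gave 0.053.

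The large fibulins FBLN1 and FBLN2 also did not pass the test. FBLN1 (ENSSSCG00000000010, minus strand of chromosome 5, from 3839501 to 3927183) was at 31.7, 23.6 and 28.9 FPKM in the sham minipigs and at 36.3, 30.9 and 29.9 FPKM in the DAC minipigs. The DAC values overlapped the upper sham values. Its log2 fold change was 0.20 (standard error 0.14, 95% confidence interval -0.13 to 0.54), with an adjusted P of 0.705 from limma, and was above 0 in all 14 alternative settings. FBLN2 (ENSSSCG00000011609, minus strand of chromosome 13, from 70757265 to 70830388) was at 22.4, 31.5 and 18.9 FPKM in the sham minipigs and at 23.4, 17.0 and 38.1 FPKM in the DAC minipigs. The DAC group held both the highest and the lowest of the 6 values. The log2 fold change of FBLN2 was 0.061 with a 95% confidence interval of -0.65 to 0.77, and it was -0.24 without DAC replicate 6.

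Of the microfibril genes, FBN1 (ENSSSCG00000004658, plus strand of chromosome 1, from 123102009 to 123359649) encodes the fibrillin that forms the microfibril itself. It was at 30.9, 43.0 and 38.5 FPKM in the sham minipigs and at 31.4, 30.3 and 74.7 FPKM in the DAC minipigs. DAC replicates 4 and 5 were level with the lowest sham minipig, and DAC replicate 6 was at 2.42 times their mean. The group means were 37.5 ± 6.12 and 45.4 ± 25.3 FPKM (SD, n = 3 each). The log2 fold change of FBN1 was 0.16 (standard error 0.34, 95% confidence interval -0.65 to 0.96), with an adjusted P of 0.914 from limma, and it was -0.26 without DAC replicate 6.

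MFAP5 (ENSSSCG00000031712, plus strand of chromosome 5, from 62742315 to 62759190), a small glycoprotein bound to fibrillin, had the same arrangement in a stronger form. It was at 17.0, 26.8 and 24.5 FPKM in the sham minipigs and at 16.3, 13.8 and 45.6 FPKM in the DAC minipigs. DAC replicates 4 and 5 were below every sham minipig, and DAC replicate 6 was at 3.03 times their mean. Its log2 fold change was -0.032 (standard error 0.42, 95% confidence interval -1.03 to 0.96) with an adjusted P of 0.987 from limma. Without DAC replicate 6 it was -0.55 and MFAP5 was a downregulated DEG (adjusted P = 0.531 from limma). The coefficient of variation of MFAP5 in the DAC group, its SD divided by its mean, was 0.701 and lay at the 98.5th percentile of the genes tested, while that of FBN1 was 0.557, at the 96.9th percentile.

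MFAP4 (ENSSSCG00000036007, plus strand of chromosome 12, from 60137566 to 60144201), a fibrinogen-domain protein that binds elastin and fibrillin, was at 22.3, 17.2 and 30.7 FPKM in the sham minipigs. It was at 37.4, 23.9 and 42.4 FPKM in the DAC minipigs. DAC replicates 4 and 6 were above every sham minipig, and DAC replicate 5 lay inside the sham range. The log2 fold change of MFAP4 was 0.54 (standard error 0.27, 95% confidence interval -0.084 to 1.17) with an adjusted P of 0.609 from limma, so MFAP4 was not a DEG, although this value is larger than that of EFEMP1. It became a DEG without DAC replicate 5, with a log2 fold change of 0.78 (adjusted P = 0.530 from limma), and without sham replicate 3, with one of 0.75 (adjusted P = 0.841 from limma). The annotated span of MFAP4 overlaps MAPK7 on the opposite strand, and that of EFEMP2 overlaps MUS81 and CTSW on the opposite strand. The library kit is not stated to keep the strand, so reads in the shared stretches cannot be told apart, and the other 8 genes overlap no listed gene.

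ELN (ENSSSCG00000025858, plus strand of chromosome 3, from 11214073 to 11244897), which encodes the elastic core, was at 6.42, 4.86 and 3.80 FPKM in the sham minipigs and at 6.16, 3.66 and 6.45 FPKM in the DAC minipigs. The groups covered the same range. The mean was 5.03 ± 1.32 FPKM in the sham group and 5.42 ± 1.54 FPKM in the DAC group (SD, n = 3 each). Its log2 fold change was 0.083 (standard error 0.23, 95% confidence interval -0.46 to 0.63), and the adjusted P from limma was 0.935. The interval holds values on both sides of 0, so the data give no direction for ELN.

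**Figure D2:**
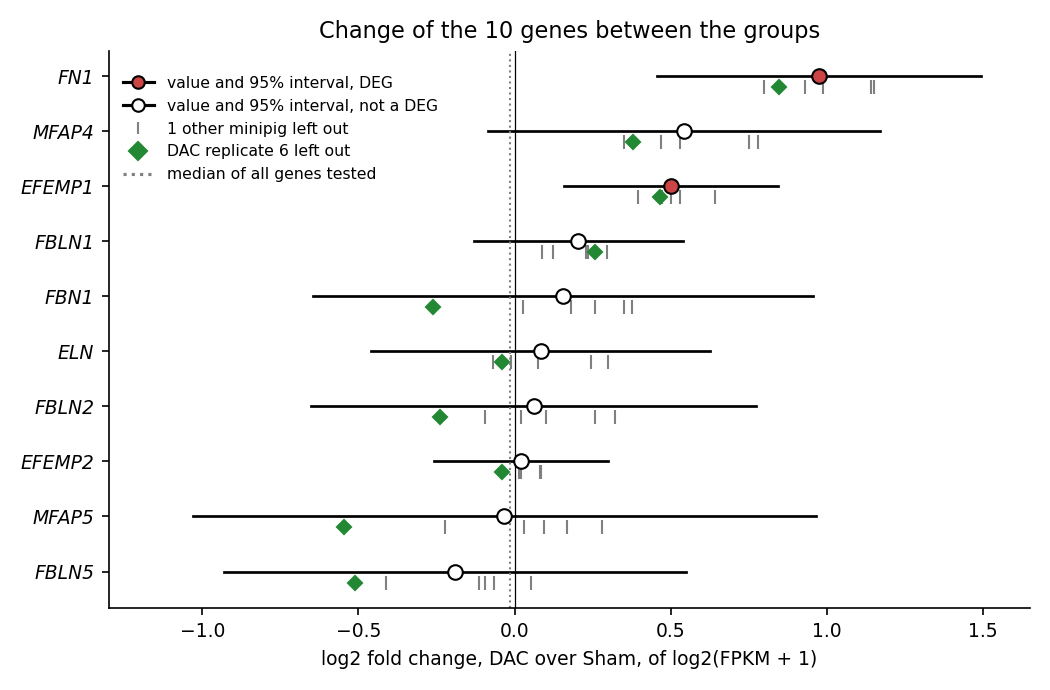
Log2 fold change of each gene, DAC over sham, with its 95% confidence interval (n = 3 per group, limma). Filled circles are DEGs, grey ticks are the values with 1 other minipig left out, green diamonds the values without DAC replicate 6, and the dotted line is the median of all genes tested. The diamonds of FN1, EFEMP1, MFAP4 and FBLN1 stay right of 0, and those of FBN1, FBLN2, ELN and EFEMP2 lie left of 0 although the values with all minipigs lie right of it.

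The genes thus differed in how the minipigs were ordered. DAC replicate 6 had the highest of the 6 values in 8 of the 10 genes, while it was the highest in 17.6% of all genes tested. DAC replicate 5 had the lowest of the 6 values in 5 of them, ELN, FBN1, FBLN2, FBLN5 and MFAP5, and was the lowest in 23.6% of all genes tested. EFEMP1 was highest in DAC replicate 5 and FBLN1 in DAC replicate 4. In FBN1, FBLN2, FBLN5 and MFAP5, DAC replicate 6 exceeded the mean of DAC replicates 4 and 5 by a factor of 1.89 to 3.03, and in the other 6 genes this factor was between 0.891, in FBLN1, and 1.38, in MFAP4. Relative to the sham mean, the mean of DAC replicates 4 and 5 was at 0.823 in FBN1, 0.833 in FBLN2, 0.685 in FBLN5 and 0.661 in MFAP5. The same quantity was 1.82 in FN1, 1.53 in EFEMP1, 1.31 in MFAP4 and 1.20 in FBLN1, and 0.976 in ELN and 0.969 in EFEMP2.

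**Figure D3:**
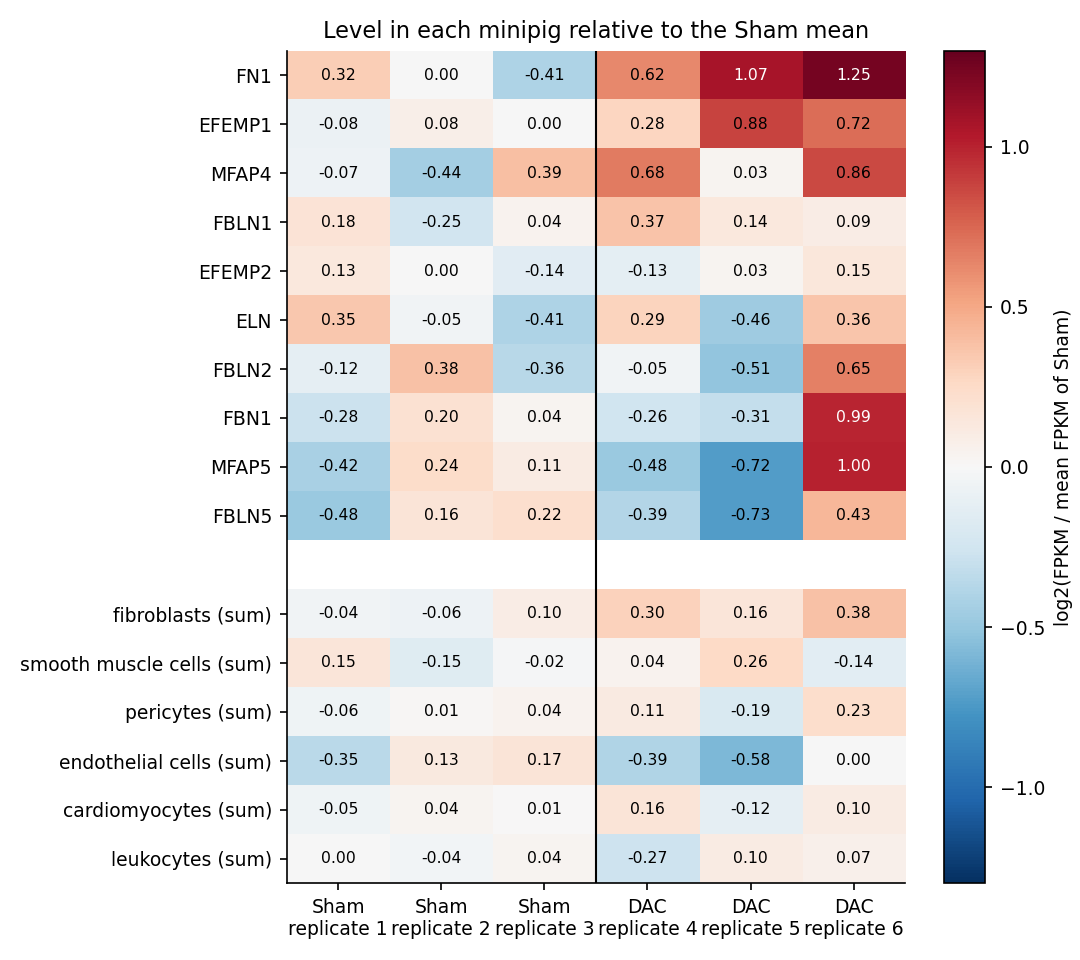
Log2 ratio of the FPKM of each minipig (columns) to the sham mean, for the 10 genes (upper rows) and for the summed FPKM of 6 lists of cell type markers (lower rows). FN1 is above the sham mean in all 3 DAC minipigs, with 0.62, 1.07 and 1.25, while FBN1 and MFAP5 are below it in DAC replicates 4 and 5 and at 0.99 and 1.0 in DAC replicate 6.

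Markers of the cells that make these proteins were measured in the same libraries. In bulk tissue, fewer cells of a type and less RNA per cell cannot be told apart. The summed level of the 10 fibroblast markers in the table was 368 to 412 FPKM in the sham group and 429 to 501 FPKM in the DAC group, and none was at 0 in any minipig. Of these markers 2 were upregulated DEGs, VIM and CD34, the others did not pass the test, and 2 of the 12 on the list are not in the table. Most of this sum was GSN, at 154 to 218 FPKM over the 6 minipigs, and VIM, at 67.3 to 146 FPKM. A ratio to the sum therefore mainly follows GSN and VIM, and ratios to single fibroblast markers were not computed. The mean of VIM was 73.0 FPKM in the sham group and 122 FPKM in the DAC group. Of the 10 markers, 8 had a higher mean log2 level in the DAC group, and their median log2 fold change was 0.13. The higher sum is thus not a measure of fibroblast number. FN1 per 100 FPKM of the fibroblast markers was 7.19, 5.83 and 3.94 in the sham minipigs and 6.98, 10.5 and 10.2 in the DAC minipigs. On this ratio DAC replicate 4 fell below sham replicate 1, and the groups overlapped. EFEMP1 on the same ratio was 0.774, 0.872 and 0.737 in the sham minipigs and 0.781, 1.31 and 1.0 in the DAC minipigs, also with an overlap. Per 100 FPKM of the smooth muscle markers FN1 was 1.61 to 2.36 in the sham group and 3.16 to 5.51 in the DAC group, and on this ratio the groups were apart. The part of fibroblast content in the differences of FN1 and EFEMP1 was not tested further.

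Endothelial markers were set beside the genes in the same way. The summed level of the 12 endothelial markers was 203, 283 and 290 FPKM in sham replicates 1 to 3 and 198, 173 and 258 FPKM in DAC replicates 4 to 6, with no marker at 0. Sham replicate 1 and DAC replicates 4 and 5 were low and the other minipigs high, and the same 3 minipigs were the lowest in FBLN5, FBN1 and MFAP5. FBLN2 did not share this, with DAC replicate 5 and sham replicate 3 lowest at 17.0 and 18.9 FPKM. Nor did each marker follow the sum, as VWF was at 37.2 FPKM in sham replicate 1 and 34.5 in DAC replicate 6. FBLN5 per 100 FPKM of these markers was 21.9, 24.7 and 25.0 in the sham minipigs and 24.1 and 21.8 in DAC replicates 4 and 5, and 32.5 in DAC replicate 6. MFAP5 on this ratio was 8.35, 9.47 and 8.44 in the sham minipigs and 8.22, 7.99 and 17.7 in the DAC minipigs. FBN1 was 15.2, 15.2 and 13.3 in the sham minipigs and 15.9, 17.5 and 29.0 in the DAC minipigs. In all 3 genes DAC replicate 6 stood above the other 5 minipigs, which lay closer together on this ratio than in FPKM. These 3 genes were picked for sharing their lowest minipigs with the sum, so division by it draws the 5 together by construction. In FBLN2 the same 5 minipigs were about as spread on this ratio, at 6.51 to 11.8, as in FPKM, at 17.0 to 31.5. For FBN1 every DAC minipig was above every sham minipig on this ratio, narrowly in DAC replicate 4. FN1, EFEMP1 and MFAP4 were also apart on it, with FN1 at 5.59 to 13.2 in the sham group and 16.7 to 26.2 in the DAC group. Of the 12 endothelial markers, 9 had a lower mean log2 level in the DAC group, which raises such ratios there. The fibroblast sum does not share that order of minipigs. Per 100 FPKM of the fibroblast markers the 5 minipigs other than DAC replicate 6 lay further apart than in FPKM in FBLN5, FBN1 and MFAP5. There they were at 8.78 to 18.9 in FBLN5, 6.61 to 11.7 in FBN1 and 3.22 to 7.27 in MFAP5. On that fibroblast ratio DAC replicate 6 was the highest in FBN1 and MFAP5 and not in FBLN5. Among the 12 endothelial markers, CLDN5, VWF and ROBO4 were downregulated DEGs and KDR and EMCN were upregulated DEGs. The 11 smooth muscle markers in the table summed to 916 to 1135 FPKM in the sham group and 925 to 1217 FPKM in the DAC group, and DAC replicate 6, with the highest level of most of the 10 genes, had 925 FPKM, the lowest DAC value. Most of this sum was TPM2, at 607 to 887 FPKM, and of the smooth muscle markers CNN1 was an upregulated and SMTN a downregulated DEG. The 8 pericyte markers summed to 149 to 160 FPKM in the sham group and 136 to 183 FPKM in the DAC group, with the lowest value in DAC replicate 5 and the highest in DAC replicate 6. The 8 leukocyte markers in the table summed to 51.0 to 53.9 FPKM in the sham group and 43.6 to 56.4 FPKM in the DAC group. Of these, CD163 was a downregulated DEG, and no pericyte marker was a DEG. The 7 adipocyte markers in the table summed to 139 to 240 FPKM in the sham group and 141 to 148 FPKM in the DAC group, with GPD1 a downregulated DEG and ADIPOQ at 0.602 FPKM or less. Of 12 mesothelial markers 2 are in the table, and they summed to 5.14 to 11.5 FPKM in the sham group and 2.54 to 4.4 FPKM in the DAC group. WT1 was the 1 mesothelial marker tested, and it was a downregulated DEG with all DAC minipigs below all sham minipigs (log2 fold change -1.23). None of these lists had a marker at 0, and the part of any of these cell types in the levels of the 10 genes was not tested.

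**Figure D4:**
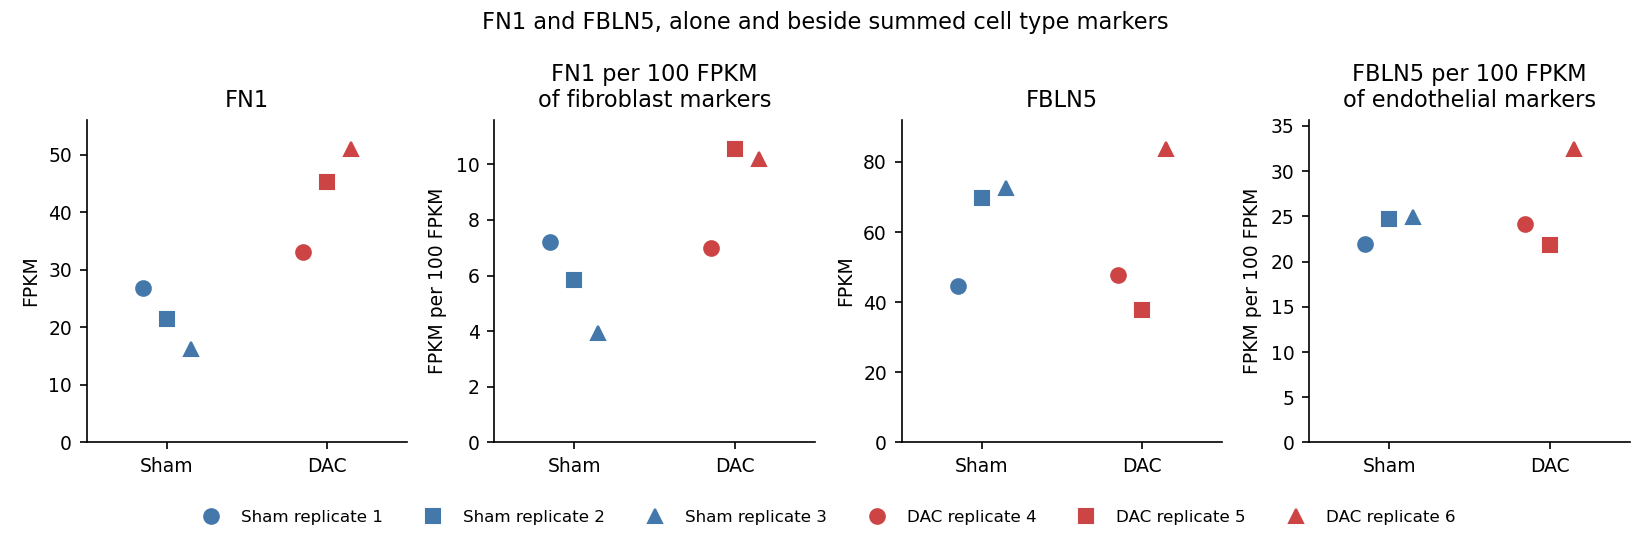
FN1 and FBLN5 in each minipig, in FPKM and per 100 FPKM of the summed markers of fibroblasts (FN1) and endothelial cells (FBLN5). Sham minipigs are blue and DAC minipigs red, and most of the fibroblast sum is GSN and VIM. FN1 is apart between the groups in FPKM and overlaps as a ratio, where sham replicate 1 is at 7.19 and DAC replicate 4 at 6.98, and FBLN5 as a ratio is highest in DAC replicate 6, as were the ratios of FBN1 and MFAP5 to the same markers, which are not drawn.

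The partners of elastic fibres and microfibrils were followed with a list of 33 gene symbols, of which 31 were found in the table and 27 were tested. Of the 27, LTBP2 and ADAMTS6 were upregulated DEGs, none was a downregulated DEG, and the median log2 fold change was 0.038. LTBP2, a latent TGF-β binding protein that attaches to microfibrils, was at 1.37, 1.79 and 1.16 FPKM in the sham minipigs and at 5.90, 1.81 and 3.21 FPKM in the DAC minipigs. The lowest DAC value of LTBP2 was level with the highest sham value, and its log2 fold change was 0.84 (standard error 0.31) with an adjusted P of 0.554 from limma. ADAMTS6, a secreted metalloprotease, was at 6.17, 5.71 and 5.26 FPKM in the sham minipigs and at 8.06, 6.89 and 7.07 FPKM in the DAC minipigs, without an overlap and with a log2 fold change of 0.31. The elastin cross-linking enzymes LOX and LOXL1 were not DEGs. LOX had a log2 fold change of 0.11, and LOXL1 had one of 0.49 (standard error 0.22, adjusted P = 0.593 from limma).

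Receptors for fibronectin and proteins that help cells assemble it made a list of 27 genes, of which 23 were tested. None was an upregulated DEG, and SDC3, a heparan sulfate proteoglycan of the cell surface, was a downregulated DEG. SDC3 was at 7.86, 10.9 and 11.4 FPKM in the sham minipigs and at 7.17, 5.36 and 6.68 FPKM in the DAC minipigs, so that all DAC values were below all sham values. Its log2 fold change was -0.57 (standard error 0.17) with an adjusted P of 0.505 from limma. The integrin chains of the main fibronectin receptor, ITGA5 and ITGB1, had log2 fold changes of 0.0017 and 0.077, and ITGAV had one of 0.21 with all DAC minipigs above all sham minipigs (adjusted P = 0.596 from limma). The median of the list was 0.062.

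The fibrillar collagens are deposited on fibronectin. Of 6 tested collagens, 4 were upregulated DEGs (COL1A1, COL1A2, COL3A1 and COL5A2), and the median log2 fold change was 0.41. Their summed level was 421, 378 and 424 FPKM in the sham minipigs and 624, 566 and 593 FPKM in the DAC minipigs. All 3 DAC minipigs were high, and DAC replicate 6 did not stand apart from the others as it did in FBN1 and MFAP5. FN1 per 100 FPKM of these collagens was 6.36, 5.68 and 3.83 in the sham minipigs and 5.31, 7.99 and 8.60 in the DAC minipigs, with an overlap. FBLN1 on this ratio was 6.24 to 7.53 in the sham group and 5.04 to 5.82 in the DAC group, and EFEMP2 was 2.23 to 2.76 and 1.53 to 1.95, so that both were lower beside the collagens in every DAC minipig. This restates the higher collagen sum, since the log2 fold changes of FBLN1 and EFEMP2 themselves were 0.20 and 0.019. No test was made of a difference between the lists.

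**Figure D5:**
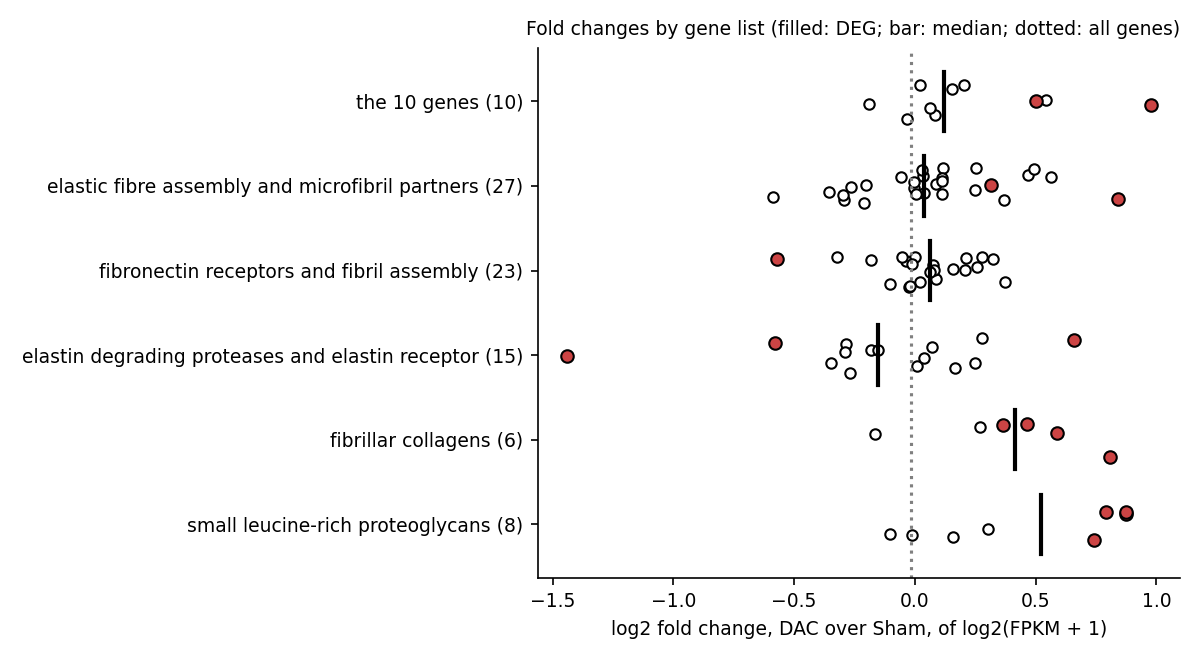
Log2 fold change, DAC over sham, of each tested gene in 6 lists, with the number tested in parentheses. Filled points are DEGs, black bars are the medians of the lists (0.12 for the 10 genes, 0.41 for the fibrillar collagens) and the dotted line is the median of all genes tested.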

How the data were processed

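Ventricular RNA of 6 minipigs was made into libraries with a NEBNext Ultra kit and read from both ends on an Illumina HiSeq. The authors deposited 1 table of FPKM per gene with a column for each minipig. The submitters' processing notes name HISAT2 and the build susScr11, and the program that made the FPKM is not given in the sources used here. In every listed gene the highest sample has at least 0.500 FPKM. All 10 positions overlap those of the same symbols in RefSeq (assembly Sscrofa11.1). Among 3753 genes with a mean below 2 FPKM, the most frequent ratio between samples was shared by 10 genes, so no whole reads could be recovered and the depth is unknown.

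A pseudocount of 1 was added to the FPKM, and log2 values were compared between the groups in R 4.3.3 with limma 3.58.1 (moderated test with a trend), with P adjusted by the Benjamini-Hochberg method over the 11029 genes tested. A two-sided exact permutation test used the 20 assignments of the minipigs. Figures were drawn with Python 3.11.15 and matplotlib 3.10.9. The fit was run on simulated data with independent normal noise and changes larger than those of the 10 genes. That run checks the code and does not bear on the calls made here. The alternatives comprised a minimum of 5 FPKM, no filter, a pseudocount of 0.1, median scaling, quantile normalization, leaving out mitochondrially encoded genes, each gene's own variance, sample weights and each minipig left out. All 10 genes are named, with the DEGs of each related list (at most 6 by P); marker genes that were DEGs, LOX, LOXL1, ITGA5, ITGB1 and ITGAV were named after their values were seen. Genes without a symbol in the table were matched to a table of identifiers for 520 of 2440. The members, lists and alternatives were chosen with earlier results of these data known. No batch is named in the labels.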

Additional observations from a re-analysis of the deposited data

How the results depend on the processing

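FN1 and EFEMP1 were DEGs in all alternatives that tested them, 14 for FN1 and 13 for EFEMP1. A minimum of 5 FPKM left 1 upregulated gene among the 9 that passed, and 579 DEGs among 6271 genes, because fewer genes were tested. With 1 minipig left out, 2 to 3 of the 10 genes were upregulated DEGs and 0 to 1 downregulated DEGs (MFAP5, without DAC replicate 6), and all DEGs numbered 600 (without sham replicate 1) to 1029. In the same settings the log2 fold change ranged from -0.55 to 0.28 for MFAP5, from -0.51 to 0.053 for FBLN5, from -0.26 to 0.38 for FBN1, from -0.24 to 0.32 for FBLN2, from -0.070 to 0.30 for ELN and from -0.044 to 0.085 for EFEMP2, so that the sign of these genes depends on single minipigs. For MFAP5 it was also above 0 after quantile normalization (0.018), with mitochondrially encoded genes left out (0.0097) and with sample weights (0.12). The share of upregulated genes among all DEGs rose with scaling, from 358 upregulated and 581 downregulated to 429 and 479 after median scaling, 418 and 469 after quantile normalization, and 502 and 408 with mitochondrially encoded genes left out. No paired analysis was possible because the groups share no replicate number. Since the depth is unknown, the counting error of each value is unknown.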

Other observations

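Proteases that can cleave elastin, their inhibitors and the elastin receptor complex gave a mixed picture. Of 23 genes on this list, 17 are in the table and 15 were tested, and their median log2 fold change was -0.15. TIMP1, an inhibitor of matrix metalloproteinases, was an upregulated DEG, at 9.31, 8.58 and 7.22 FPKM in the sham minipigs and 11.8, 16.3 and 13.4 FPKM in the DAC minipigs. CTSD, a lysosomal aspartic protease, was a downregulated DEG, with a mean of 198 ± 2.5 FPKM in the sham group and 132 ± 14.3 FPKM in the DAC group (SD, n = 3 each). SLPI, an inhibitor of neutrophil elastase, was also a downregulated DEG, at 9.58, 12.6 and 19.2 FPKM in the sham minipigs and 4.72, 2.34 and 6.59 FPKM in the DAC minipigs, with a log2 fold change of -1.44 (standard error 0.34) and an adjusted P of 0.465 from limma. The groups did not overlap in any of these 3 genes. MMP2 was not a DEG, at 23.9 to 28.3 FPKM in the sham group and 28.4 to 36.4 FPKM in the DAC group, without an overlap (log2 fold change 0.28, adjusted P = 0.596 from limma). TIMP4 was not a DEG either, at 1.92 to 2.14 FPKM in the sham group and 1.23 to 1.87 FPKM in the DAC group, again without an overlap (log2 fold change -0.29, adjusted P = 0.593 from limma), and MMP9 did not pass the filter, with at most 0.590 FPKM, in DAC replicate 5.

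Of 8 tested small leucine-rich proteoglycans, which coat collagen fibrils, 4 were upregulated DEGs (OGN, LUM, BGN and FMOD) and the median log2 fold change was 0.52. The minipigs were not in the same order as in the microfibril genes. BGN, which also binds elastin and microfibrils, was at 67.5 and 67.2 FPKM in DAC replicates 4 and 5 and at 34.0 FPKM in DAC replicate 6, against 25.6 to 31.5 FPKM in the sham group. DCN was at 99.8, 150 and 218 FPKM in DAC replicates 4 to 6 and was not a DEG, with a log2 fold change of -0.012. Among the partners of elastic fibres, LTBP4 was at 75.7 FPKM in DAC replicate 5 and 149 FPKM in DAC replicate 6, and HMCN2 at 2.69 and 14.3 FPKM, the lowest and the highest of the 6 values in both genes. MMP2, MMP9, TIMP4, BGN (for its order), DCN, LTBP4 and HMCN2 were named here after their values were seen.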
